A study of Mus musculus with 5 samples.

Results

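The genes described here encode the chaperones, folding enzymes, translocon and degradation machinery of the endoplasmic reticulum (ER), with sensors and transcription factors of the unfolded protein response. The set holds 36 genes, taken by symbol from the 46959 gene symbols of the deposited read count tables: 4 sensors and transcription factors, 10 chaperones and cochaperones, 7 disulfide isomerases and oxidases, 10 genes of ER-associated degradation, 4 genes of the translocon, and Ufm1. Of these, 35 were among the 17026 genes with enough counts to be tested. The exception, the degradation gene Derl3, had 4, 13 and 8 counts in the caMNK libraries and 4 and 3 counts in the pBABE libraries. RNA was sequenced from D4M.3A cells carrying caMNK, a constitutively active form of the kinase MNK1 (n = 3 libraries), and from D4M.3A cells carrying the retroviral vector pBABE as the control (n = 2 libraries). MNK1 phosphorylates eIF4E, the protein that binds the cap of mRNAs for translation. D4M.3A is a melanoma line from a C57BL/6 mouse with mutant Braf, and both kinds of cells were at passages 7 to 12. The labels do not say whether either line is a clone or a pool, and the series text speaks of biological replicates without describing the cultures. The p-values therefore measure the spread between these libraries, and any other difference between the lines and the kinase cannot be told apart.

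Secretory and membrane proteins enter the ER through the translocon, fold there with chaperones and with enzymes that form and rearrange disulfide bonds, and are passed back to the cytosol for destruction by the proteasome when folding fails. When unfolded proteins accumulate, the sensors IRE1, ATF6 and PERK start the unfolded protein response. IRE1 splices Xbp1 mRNA so that it encodes an active transcription factor, ATF6 is cut in the Golgi to release its transcription factor domain, and PERK phosphorylates the initiation factor eIF2α, which lowers translation in general and favours that of ATF4. XBP1 and ATF6 raise the transcription of many of the chaperone and degradation genes described here.

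Libraries held 27827199, 48794336 and 36392842 counts in caMNK and 42730166 and 32963884 counts in pBABE. Mknk1, which encodes MNK1, measured 167, 155 and 168 CPM (counts scaled to a common library size) in caMNK and 15.2 and 16.7 CPM in pBABE, as the labels imply. Replicate 2 stood apart among the caMNK libraries: on the second principal component, which held 21.3% of the variance of log2 CPM, it lay at −31.8 and replicate 3 at 21.7. Mitochondrial and nuclear RNAs, whose levels can reflect the quality of an RNA sample and how its library was made, also moved with the groups. The 13 mitochondrial mRNAs summed to between 18771.9 and 21665.3 CPM in caMNK and between 12290.4 and 13533 CPM in pBABE, and 6 of the 10 tested were called higher. The nuclear non-coding RNAs, led by Malat1 and Neat1, summed to between 774 and 1067 CPM in caMNK and between 495.7 and 511 CPM in pBABE, and 5 of the 8 tested were called higher and 1 lower. Over all tested genes 4.42% were called higher and 3.52% lower. With either pBABE library left out, nearly all calls over the whole set of tested genes were lost, those of the mitochondrial and nuclear RNAs among them. The part of these RNAs in the results on the ER genes was not tested. Of 10 pigment cell genes, 9 were under 1 CPM in every library and 3 were at 0, while Mitf measured 4.35 to 6.48 CPM in caMNK and 5.93 to 6.26 CPM in pBABE, so the pigment markers of melanocytes were nearly absent from this melanoma line. All 9 markers of T and B cells and 6 of 9 markers of macrophages were under 1 CPM in every library, as were 6 of 7 of keratinocytes and 5 of 6 of endothelial cells. The endothelial markers summed to between 3.70 and 3.97 CPM in caMNK and between 5.52 and 9.48 CPM in pBABE, with 1 of 3 tested called lower. The 8 fibroblast markers, led by collagen genes, summed to between 400.1 and 522 CPM in caMNK and between 384.0 and 445 CPM in pBABE, with 1 of 5 tested called higher and 1 lower; the part of these genes in the results was not tested. These are bulk libraries, in which fewer cells of a type and less RNA per cell cannot be told apart.

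Among the ER genes, 5 fell in caMNK and 0 rose: the sensor gene Atf6, the cochaperone gene Sdf2l1, and the degradation genes Herpud1, Sel1l and Edem3. A gene is said to rise or fall here when the adjusted p of edgeR's quasi-likelihood test, corrected by Benjamini-Hochberg over the 17026 genes tested, is under 0.05. The 5 genes are 14.3% of the 35 tested, against 3.52% of all tested genes that fell and 4.42% that rose. At an unadjusted p under 0.05, 8 of the 35 were lower and 2 higher, against 12.1% and 13.8% of all genes, and DESeq2 and limma-voom each called 5 lower and 0 higher (all genes 4.48% lower and 5.54% higher by DESeq2, 3.3% and 3.87% by limma-voom). The changes were small: the median log2 fold change, caMNK over pBABE, was −0.09 over the 35 genes and −0.0021 over all genes, and the median of its size without regard to sign was 0.114 against 0.186. Standard errors (SE) of the 35 log2 fold changes lay between 0.0781 and 0.145.

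More of the ER genes lay below 0 than above it. The log2 fold change was negative for 30 of 35 genes (85.7%), against 50.4% of all tested genes. All caMNK libraries lay below both pBABE libraries for 16 of the 35 (45.7%; all genes 22.6%) and above both for 2 (5.71%; all genes 22.3%), and the groups overlapped for 17. Among the 10309 tested genes at or above the mean log2 CPM of the least abundant of the 35, which was 3.14, 4.08% fell, 3.35% rose and the median log2 fold change was −0.033. Each library's median log2 ratio to the pBABE mean, over the 35 genes, was −0.16, −0.10 and −0.07 in caMNK and 0.02 and −0.02 in pBABE. Together the 36 genes took 1.15%, 1.27% and 1.19% of the scaled counts in caMNK and 1.32% and 1.29% in pBABE, so every caMNK library was below both pBABE libraries, with replicate 2 the nearest to them.

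**Figure D1:**
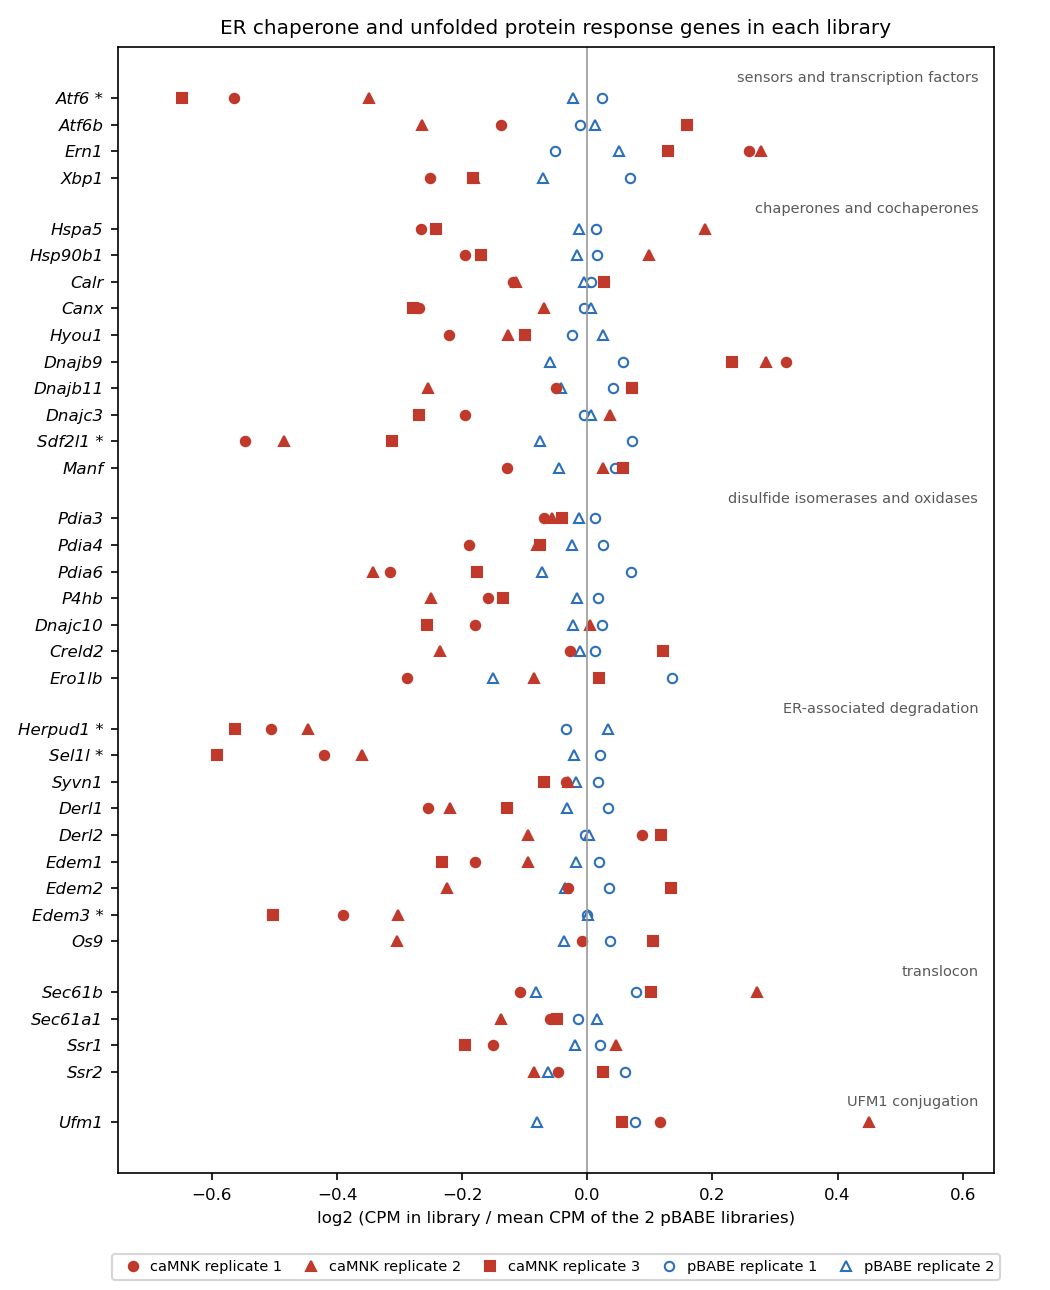
Each row is 1 of the 35 tested genes, grouped by role, and the horizontal axis is the log2 ratio of its CPM in a library to the mean CPM of the 2 pBABE libraries (filled symbols caMNK replicates 1 to 3, open symbols pBABE replicates 1 and 2; an asterisk marks an adjusted p under 0.05). The caMNK symbols of Atf6, Sdf2l1, Herpud1, Sel1l and Edem3 lie well to the left of both pBABE symbols, those of Ern1 and Dnajb9 all lie to the right of both pBABE symbols, and for Hspa5 and Hsp90b1 replicate 2 (triangle) lies on the other side of the pBABE symbols from replicates 1 and 3.

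Of the 4 sensors and transcription factors, Atf6 fell, and Atf6b, the IRE1 gene Ern1 and its target Xbp1 did not pass the test. Atf6 measured 110, 128 and 104 CPM in caMNK, against 165 and 160 CPM in pBABE. All 3 caMNK libraries lay well below both pBABE libraries, with replicate 2 the closest to them. Its level was 1.43-fold lower in caMNK (log2 fold change −0.51, SE 0.104, 95% confidence interval −0.75 to −0.28, edgeR adjusted p = 0.0236). Atf6 is a long gene, at bases 170704674 to 170867771 of chromosome 1 (mm10, minus strand), and introns make up 94.3% of the span over which its reads were counted.

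Atf6b encodes a relative of ATF6 that is activated in the same way and is a weaker transcription factor. It measured 65.4, 59.9 and 80.4 CPM in caMNK and 71.4 and 72.6 CPM in pBABE. The caMNK libraries lay on both sides of the pBABE pair, and the difference of −0.07 (95% confidence interval −0.36 to 0.22) was not past the threshold (adjusted p = 0.774). Ern1 measured 50.5, 51.1 and 46.2 CPM in caMNK and 40.7 and 43.7 CPM in pBABE. Every caMNK library was above both pBABE libraries, with a log2 fold change of 0.22 that was not past the threshold (SE 0.0923, adjusted p = 0.170). Xbp1 measured 53.5, 56.2 and 56.1 CPM in caMNK and 66.8 and 60.6 CPM in pBABE. Here every caMNK library was below both pBABE libraries, with a log2 fold change of −0.20 (SE 0.0869, adjusted p = 0.180). Counts over the whole gene do not separate the spliced from the unspliced Xbp1 mRNA.

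Of the 10 chaperones and cochaperones, 1 fell, 0 rose and 9 did not pass the test (all genes 3.52% fell and 4.42% rose). Their median log2 fold change was −0.087. Sdf2l1 encodes a small lumenal protein that works with the J-domain cochaperone DNAJB11. It measured 19.5, 20.3 and 22.9 CPM in caMNK, against 29.9 and 27.0 CPM in pBABE. The groups did not overlap, and the caMNK libraries spanned about as wide a range as the pBABE pair. Sdf2l1 was 1.36-fold lower (log2 fold change −0.44, SE 0.108, 95% confidence interval −0.69 to −0.20, edgeR adjusted p = 0.0430). It is a short gene, at bases 17130138 to 17132383 of chromosome 16 (minus strand).

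Hspa5 encodes BiP, the main HSP70 of the ER lumen and the usual marker of the unfolded protein response. It measured 1115, 1528 and 1134 CPM in caMNK and 1354 and 1329 CPM in pBABE. Replicates 1 and 3 of caMNK were below both pBABE libraries and replicate 2 was above both, so the groups overlapped. The log2 fold change was −0.09 (SE 0.138, 95% confidence interval −0.41 to 0.22, adjusted p = 0.728). Hsp90b1, which encodes the lumenal HSP90 GRP94 and shares its locus with 1810014B01Rik and Gm15344, had the same order of libraries, at 2455, 3012 and 2501 CPM in caMNK and 2843 and 2782 CPM in pBABE (adjusted p = 0.675).

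The lectin chaperones calreticulin and calnexin hold glycoproteins while they fold. Calr measured 1183, 1187 and 1308 CPM in caMNK and 1289 and 1280 CPM in pBABE, with overlapping groups. Canx measured 941, 1081 and 935 CPM in caMNK and 1130 and 1138 CPM in pBABE, all caMNK libraries lower, with a log2 fold change of −0.20 (adjusted p = 0.215). Hyou1, the gene of a nucleotide exchange factor for BiP, was likewise lower in each caMNK library, at 318, 340 and 346 CPM against 365 and 377 CPM in pBABE (log2 fold change −0.15, adjusted p = 0.304).

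Dnajb9 went the other way from most of the group. It encodes ERdj4, a J-domain cochaperone that helps BiP keep IRE1 inactive. Its level was 31.6, 30.9 and 29.8 CPM in caMNK and 26.4 and 24.3 CPM in pBABE, with every caMNK library higher and a log2 fold change of 0.28 that did not pass the threshold (SE 0.0934, adjusted p = 0.103). The remaining members, Dnajb11, Dnajc3 and Manf, overlapped between the groups. Dnajb11 and Dnajc3 encode further J-domain cochaperones of BiP, with log2 fold changes of −0.07 and −0.14. Manf encodes a secreted ER protein that binds BiP, and its log2 fold change was −0.01, with reads that can be in common with Rbm15b and 4930524O07Rik.

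None of the 7 disulfide isomerases and oxidases passed the test by edgeR, DESeq2 or limma-voom (all genes 3.52% fell and 4.42% rose by edgeR). Only 1, Pdia6, had an unadjusted p under 0.05 (all genes 12.1% lower and 13.8% higher). All 7 had a negative log2 fold change, with a median of −0.11. Pdia6, the isomerase that also binds and restrains IRE1, measured 595, 583 and 655 CPM in caMNK and 776 and 703 CPM in pBABE. All caMNK libraries were lower, with a log2 fold change of −0.28 (SE 0.0924, adjusted p = 0.103). P4hb, the gene of the classical protein disulfide isomerase, measured 757, 711 and 769 CPM in caMNK and 855 and 835 CPM in pBABE (log2 fold change −0.18, adjusted p = 0.210). Pdia3, whose product acts on glycoproteins bound to calnexin and calreticulin, and Pdia4 were also lower in every caMNK library, by −0.06 and −0.11 on the log2 scale. The groups overlapped for the reductase gene Dnajc10 (−0.14), for Creld2 (−0.04) and for the oxidase gene Ero1lb (−0.11), which was the least abundant of the 35 at 7.49, 8.62 and 9.27 CPM in caMNK and 10.1 and 8.24 CPM in pBABE.

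Most of the calls were in ER-associated degradation, where 3 of 9 tested genes fell, 0 rose and 6 did not pass the test (all genes 3.52% fell and 4.42% rose). The median log2 fold change was −0.17, and all caMNK libraries were lower than both pBABE libraries for 6 of the 9 (all genes 22.6%). Herpud1 encodes a membrane protein that gathers the ubiquitin ligase complex and is among the strongest responders to ER stress. It measured 18.3, 19.1 and 17.6 CPM in caMNK, against 25.4 and 26.6 CPM in pBABE. The 2 groups were far apart relative to the spread within each. Herpud1 was 1.42-fold lower (log2 fold change −0.50, SE 0.0959, 95% confidence interval −0.72 to −0.28, edgeR adjusted p = 0.0189). Herpud1 occupies bases 94386438 to 94395377 of chromosome 8 (plus strand), and the antisense gene Gm15890, which overlaps it by 535 bp, held 416 counts over all libraries against 4027 for Herpud1.

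Sel1l encodes the adaptor that holds the ligase HRD1 and its substrates together. It measured 79.8, 83.2 and 70.8 CPM in caMNK and 108 and 105 CPM in pBABE. Every caMNK library was lower, and replicate 3 was the lowest. The level was 1.37-fold lower (log2 fold change −0.45, SE 0.0941, 95% confidence interval −0.67 to −0.24, edgeR adjusted p = 0.0255) over bases 91806043 to 91849157 of chromosome 12 (minus strand).

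Edem3 encodes a mannosidase that trims the glycans of misfolded proteins and so marks them for disposal. It measured 46.9, 49.8 and 43.4 CPM in caMNK and 61.4 and 61.5 CPM in pBABE. The pBABE libraries were nearly equal and every caMNK library was below them. Edem3 was 1.32-fold lower (log2 fold change −0.40, SE 0.0910, 95% confidence interval −0.60 to −0.19, edgeR adjusted p = 0.0363) over bases 151755371 to 151822051 of chromosome 1 (plus strand).

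**Figure D2:**
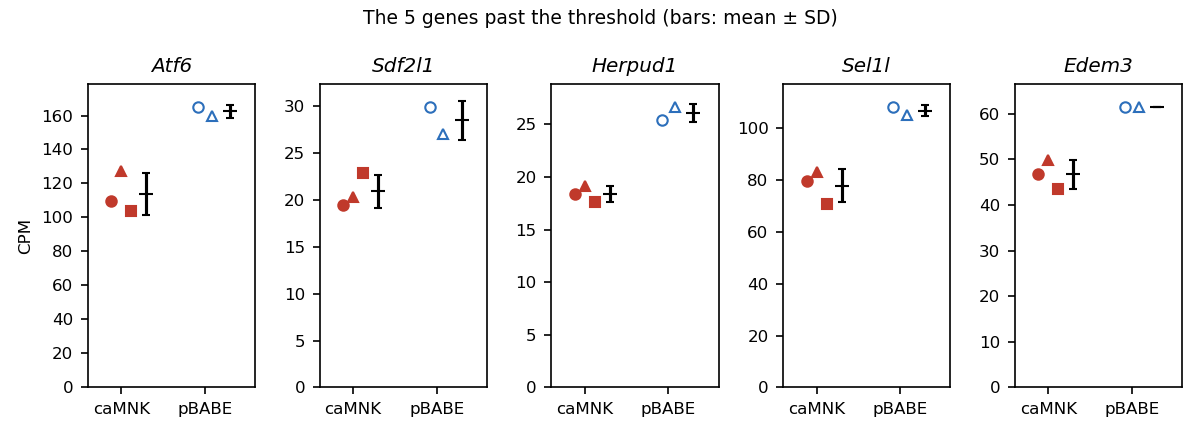
The vertical axes give CPM, starting at 0, for the 5 genes past the threshold, with caMNK replicates 1 to 3 (circle, triangle and square, filled) left of pBABE replicates 1 and 2 (circle and triangle, open), and the bars show the mean ± SD of each group. No caMNK library reaches a pBABE library for any of the 5 genes, and Atf6 has the widest spread within caMNK, from 104 to 128 CPM.

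The other tested degradation genes did not pass the test. Syvn1, which encodes the ligase HRD1 that SEL1L serves, measured 29.5, 29.6 and 28.8 CPM in caMNK and 30.6 and 29.8 CPM in pBABE. Its log2 fold change was −0.04 (95% confidence interval −0.24 to 0.15), so this HRD1 gene and Sel1l had fold changes of different size, a difference that was not tested. Derl1 and Derl2 encode derlins, which form part of the channel out of the ER: Derl1 was lower in every caMNK library (log2 fold change −0.20, adjusted p = 0.178), and Derl2 overlapped between the groups (0.04, adjusted p = 0.837). The mannosidase-like gene Edem1 was lower in every caMNK library (−0.17, adjusted p = 0.252), whereas Edem2 (−0.03) and Os9 (−0.06), the gene of a lectin that brings trimmed glycoproteins to SEL1L, overlapped. Syvn1 can share reads with Mrpl49 and Derl2 with Mis12. Derl3 was near the limit of detection, at 0.139, 0.267 and 0.216 CPM in caMNK and 0.0960 and 0.0930 CPM in pBABE.

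No gene of the translocon passed the test by edgeR, DESeq2 or limma-voom (all genes 3.52% fell and 4.42% rose by edgeR). At an unadjusted p under 0.05 the count was 0 of 4 (all genes 12.1% lower and 13.8% higher). Sec61a1, which encodes the pore, measured 228, 216 and 230 CPM in caMNK and 235 and 240 CPM in pBABE, slightly lower in every caMNK library (log2 fold change −0.08, 95% confidence interval −0.27 to 0.10). Sec61b, which encodes another subunit of the channel, and Ssr1 and Ssr2, which encode subunits of the translocon-associated protein complex, overlapped between the groups, with log2 fold changes of 0.10, −0.10 and −0.03. Ufm1 encodes a small modifier that is attached to ribosomes stalled at the translocon. It measured 48.2, 60.7 and 46.2 CPM in caMNK and 46.8 and 42.1 CPM in pBABE, with overlapping groups (log2 fold change 0.22, SE 0.131, adjusted p = 0.334).

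Levels of different genes are given here per length of the counted span, introns included. Genes with a larger share of introns can lie lower on this scale, so it does not rank their mRNA levels. Introns made up 94.3% of the span of Atf6 and 91.2% of Ern1, against 73.65% of Hsp90b1, 43.4% of Calr and 24.2% of Hspa5. On the scale of CPM per kb, Calr was the highest of the 36, at 241.1 in caMNK and 252.6 in pBABE. Hspa5 followed at 226 in caMNK and 240.5 in pBABE, and Hsp90b1 at 174 in caMNK and 184 in pBABE. The sensors with long introns were near the bottom on this scale, Ern1 at 0.528 in caMNK and 0.453 in pBABE and Atf6 at 0.697 in caMNK and 0.996 in pBABE. Of the 5 genes that fell, Sdf2l1 had the highest level on this scale, at 9.31 in caMNK and 12.7 in pBABE, and Herpud1, Sel1l and Edem3 lay between 0.701 and 2.05 in caMNK and between 0.922 and 2.91 in pBABE.

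The promoters of several of these genes carry the sequence elements through which the unfolded protein response is known to act, and they are shown because they are the letters through which ATF6, XBP1 and ATF4 bind such genes. Windows from 250 bases before to 50 bases after the transcription start were taken from RefSeq (GRCm38.p6) and were present for 29 of the 36 genes. Exact letters were searched on both strands. The ER stress response element (ERSE; CCAAT, then 9 bases of any kind, then CCACG) was found in 9 of the 29 (31%), against 37 of 27025 genes with a window (0.137%). The related ERSE-II (ATTGG, 1 base of any kind, then CCACG) was found in 2 (6.9%), against 0.0444% of all. The XBP1 element TGACGTGG was found in 0 (all 0.714%) and the ATF4 site TTGCATCA in 1, Herpud1 (3.45%, all 1.03%). The matches are given 5′ to 3′ on the strand of the element, with the fixed letters in capitals. ERSE and ERSE-II do not share a match here.
Hspa5, 65 to 47 bases before the start: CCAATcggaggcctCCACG
Calr, 162 to 144 bases before the start: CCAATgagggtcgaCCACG
Canx, 145 to 127 bases before the start: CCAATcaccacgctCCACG
Hsp90b1, 212 to 194 bases before the start: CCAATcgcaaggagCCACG
Hsp90b1, 107 to 89 bases before the start: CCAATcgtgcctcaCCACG
Dnajc3, 105 to 87 bases before the start: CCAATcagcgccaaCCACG
Pdia6, 98 to 80 bases before the start: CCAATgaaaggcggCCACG
Creld2, 126 to 108 bases before the start: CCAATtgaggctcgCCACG
Syvn1, 44 to 26 bases before the start: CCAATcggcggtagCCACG
Derl3, 156 to 138 bases before the start: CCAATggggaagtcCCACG
Herpud1, ERSE-II, 52 to 42 bases before the start: ATTGGgCCACG
Dnajb11, ERSE-II, 8 to 18 bases after the start: ATTGGcCCACG

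The windows of Hspa5, the marker gene whose level overlapped between the groups, and of Herpud1, the called gene with the lowest adjusted p, are given whole on the strand of the gene, with the matches in capitals. That of Hspa5 is chr2:34771840-34772139 on the plus strand and holds 1 exact match to the ERSE. That of Herpud1 is chr8:94386179-94386478 on the plus strand and holds the ATF4 site and, nearer the start, the ERSE-II.
Hspa5: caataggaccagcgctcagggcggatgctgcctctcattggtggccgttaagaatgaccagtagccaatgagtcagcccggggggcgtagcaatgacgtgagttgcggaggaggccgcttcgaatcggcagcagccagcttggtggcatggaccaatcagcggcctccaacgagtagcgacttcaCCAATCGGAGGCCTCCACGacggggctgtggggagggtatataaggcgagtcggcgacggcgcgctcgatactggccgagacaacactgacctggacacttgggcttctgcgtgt
Herpud1: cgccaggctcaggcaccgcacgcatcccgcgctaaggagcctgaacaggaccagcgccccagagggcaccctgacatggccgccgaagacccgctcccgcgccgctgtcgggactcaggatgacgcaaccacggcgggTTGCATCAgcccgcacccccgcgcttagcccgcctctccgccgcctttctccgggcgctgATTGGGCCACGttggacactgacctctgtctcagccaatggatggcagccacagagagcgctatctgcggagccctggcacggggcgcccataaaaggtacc

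The fold changes of genes with and without an exact match to these elements overlapped. The 10 tested genes with an ERSE or ERSE-II had a median log2 fold change of −0.087, between −0.50 (Herpud1) and −0.04. Of them 1 fell (all genes 3.52%). The 18 tested genes with a window and no match had a median of −0.083, between −0.45 (Sel1l) and 0.28 (Dnajb9), and 3 of them fell: Sdf2l1, Sel1l and Edem3. Of the 8 tested genes with an ERSE, 0 passed the threshold by edgeR, DESeq2 or limma-voom, 1 (Pdia6) had an unadjusted p under 0.05, and all 8 log2 fold changes lay between −0.28 and −0.04. Without caMNK replicate 2, 4 of the 8 fell: Hspa5, Canx, Dnajc3 and Pdia6. In that fit 12 of the 35 genes and 15.7% of all tested genes fell. Atf6 has no entry in the promoter table.

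How many of the genes were called depended on single libraries. The log2 fold changes of the 5 called genes kept their direction under all 15 alternative settings for Atf6, Sdf2l1, Sel1l and Edem3 and under the 14 in which Herpud1 was tested: Atf6 lay between −0.61 and −0.45, Sdf2l1 between −0.52 and −0.38, Herpud1 between −0.55 and −0.45, Sel1l between −0.51 and −0.39, and Edem3 between −0.45 and −0.34. All 5 calls were lost without pBABE replicate 1 (adjusted p 0.183 to 0.361), without pBABE replicate 2 (0.164 to 0.259) and without caMNK replicate 1 (0.0994 to 0.181). In those fits 5, 6 and 5 of the genes had an unadjusted p under 0.05 with a lower level, against 6.09%, 5.77% and 7.69% of all tested genes, and the shares of all genes that fell by adjusted p were 0.0688%, 0.101% and 0.474%, beside 0.0631%, 0.208% and 1.04% that rose. DESeq2 and limma-voom were run on all libraries only. Sdf2l1 also missed the threshold with a stricter filter on low counts (adjusted p = 0.0564) and with libraries scaled by their totals (0.0612); over its 15 alternatives the adjusted p ran up to 0.361. Without caMNK replicate 3 all 5 remained and 0 of the 35 rose (all genes 4.6% fell and 5.57% rose).

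Leaving out caMNK replicate 2 had the opposite effect. With the remaining 4 libraries 12 of the 35 genes fell (34.3%) and 1 rose, against 15.7% and 13.9% of all tested genes, shares that were also higher than with all libraries. The 5 genes remained among them, with log2 fold changes of −0.61 for Atf6, −0.54 for Herpud1, −0.51 for Sel1l, −0.45 for Edem3 and −0.42 for Sdf2l1. The others that fell were Hspa5 (−0.26, adjusted p = 0.0125), Canx (−0.28, 0.00766), Dnajc3 (−0.23, 0.0164), Dnajc10 (−0.22, 0.0242), Pdia6 (−0.24, 0.0249), Edem1 (−0.21, 0.0288) and Xbp1 (−0.22, 0.0378), and Dnajb9 rose (0.27, 0.0237). Over all 15 settings the adjusted p of these 8 genes ran from 0.00766 to 0.988. Pdia6 also passed with no filter on low counts (0.0422) and after a correction for GC content and gene length (0.0380), and Ern1 rose after that correction (log2 fold change 0.32, adjusted p = 0.0196).

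**Figure D3:**
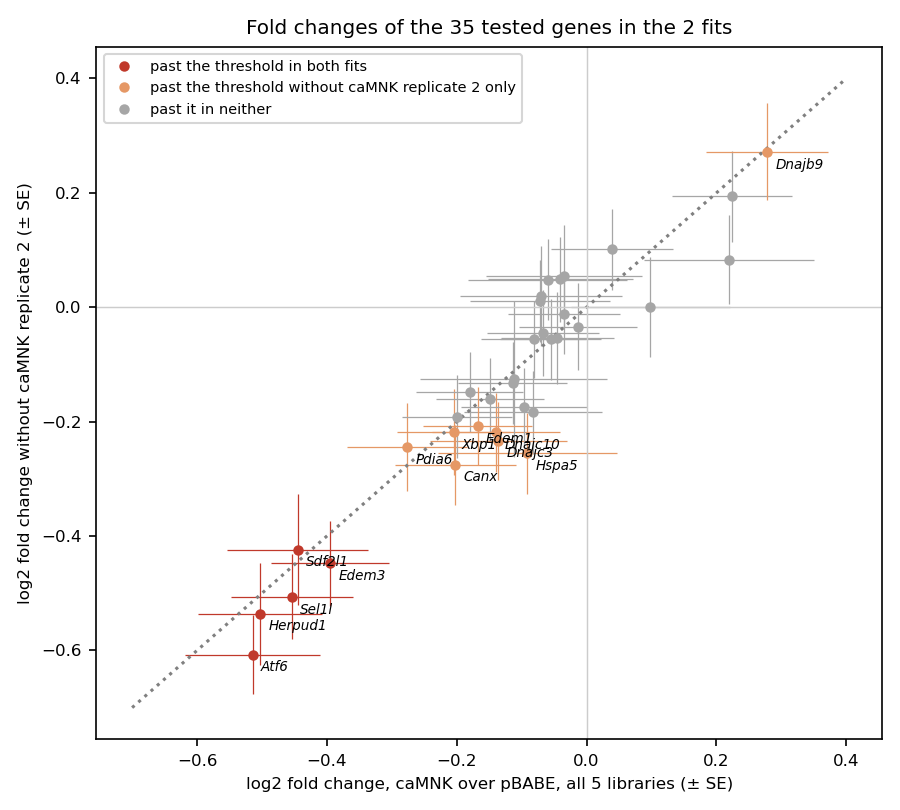
Each point is 1 of the 35 tested genes, with its log2 fold change (caMNK over pBABE) ± SE from all 5 libraries on the horizontal axis and from the 4 libraries without caMNK replicate 2 on the vertical axis; the dotted line marks equal values, and red and orange mark genes past the threshold in both fits and without replicate 2 alone. The 5 red genes lie at the lower left, and Hspa5 is among the points furthest below the line, at −0.09 with all libraries and −0.26 without replicate 2.

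In caMNK replicate 2 the levels of the ER genes varied with the base composition of their transcripts. Of the 35 genes, 16 were highest in replicate 2 among the caMNK libraries, 10 lowest and 9 in the middle. The log2 ratio of replicate 2 to the geometric mean of replicates 1 and 3 was 0.44 for Hspa5, 0.37 for Ufm1 and 0.28 for Hsp90b1, whose longest transcripts hold 45.6%, 41.6% and 42.1% GC. At the other end it was −0.35 for Os9 and −0.28 for Creld2, at 56.6% and 54.8% GC. Across the 35 genes Spearman's rho between this ratio and GC content was −0.57, and across 10146 tested genes (mean log2 CPM at least 3, GC content known) it was −0.62, values that describe 1 library and that all share its depth. Not all of them kept this order: Sec61b had a ratio of 0.27 at 56.3% GC, Derl2 −0.20 at 42.9% GC, and Dnajb9, with 40.6% GC, 0.010. With the length of the gene the ratio had a rho of 0.25 over the 35 genes and 0.34 over 10521 tested genes at the same level. For the fold change of caMNK over pBABE, rho with GC content was 0.066 over the 35 genes and −0.056 over all, and rho with gene length was −0.22 over the 35 and −0.20 over all. Of the called genes Atf6, Edem3 and Sel1l span 163, 66.7 and 43.1 kb, and counts take in their introns; the part of gene length in the fold changes was not tested beyond the correction for GC content and length, after which all 5 calls remained.

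**Figure D4:**
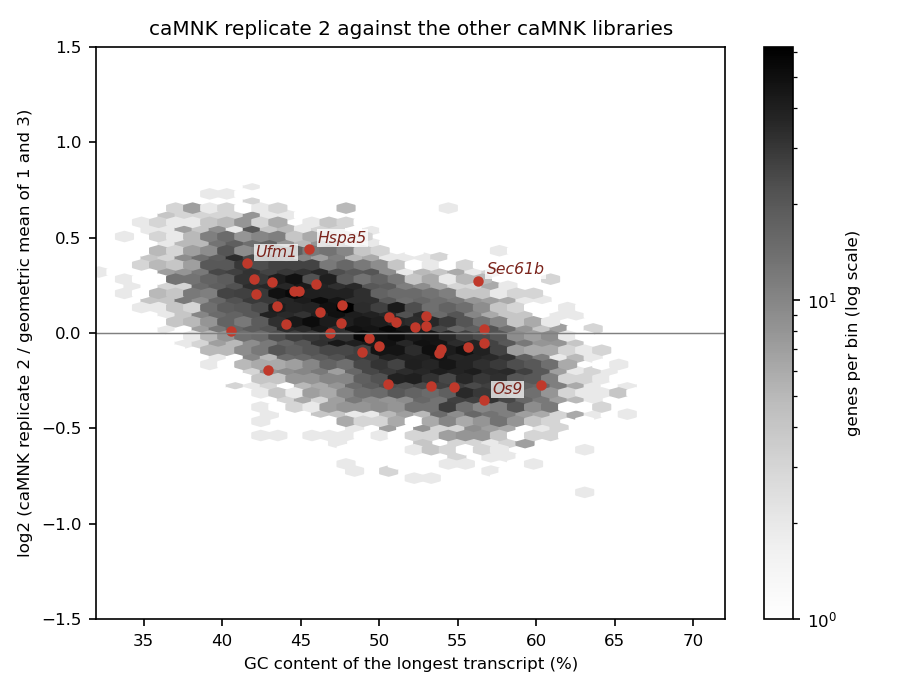
The vertical axis is the log2 ratio of caMNK replicate 2 to the geometric mean of caMNK replicates 1 and 3, and the horizontal axis the GC content of each gene's longest transcript in percent. Grey bins count all tested genes whose mean log2 CPM is at least 3 and red points are the 35 ER genes, which run down from Hspa5 (0.44) and Ufm1 (0.37) on the left to Os9 (−0.35) on the right, with Sec61b (0.27) above the band.

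A wider list of 153 other ER genes, chosen by function, held 148 tested genes, of which 10 fell (6.76%, all genes 3.52%) and 2 rose (1.35%, all genes 4.42%). Their median log2 fold change was −0.08, and 60.1% lay below 0. The calls fell in 4 of the 8 roles: 4 of 25 other chaperones and glycoprotein-folding genes fell, 3 of 20 other oxidoreductases fell, 2 of 9 genes of the PERK branch fell and 1 rose, and 1 of 29 translocon genes fell and 1 rose. None of the 8 other sensors, 30 other degradation genes, 7 UFM1 genes and 20 genes of ER export was called by edgeR. At an unadjusted p under 0.05 they held 3, 7, 0 and 1 genes (all genes 12.1% lower and 13.8% higher). DESeq2 called 1 degradation gene and limma-voom none. Over all tested genes 0.474% fell and 1.04% rose without caMNK replicate 1, and 15.7% fell and 13.9% rose without caMNK replicate 2. Of the 148, 2 fell without caMNK replicate 1, and 40 fell and 10 rose without caMNK replicate 2. With either pBABE library left out, nearly all calls over the whole set of tested genes were lost, those of the 148 among them.

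Among the oxidoreductases the largest difference was in Ero1l, which encodes the oxidase that recharges protein disulfide isomerase and is the close relative of Ero1lb. It measured 68.8, 86.6 and 72.5 CPM in caMNK, against 140.5 and 143 CPM in pBABE. All caMNK libraries were far below both pBABE libraries (log2 fold change −0.90, SE 0.109, adjusted p = 0.00537; 0.0907 at most under the alternatives). P4ha1, the catalytic subunit gene of collagen prolyl hydroxylase, of which protein disulfide isomerase is the other subunit, fell (−0.57, adjusted p = 0.00814), as did the sulfhydryl oxidase gene Qsox2 (−0.44, 0.0354). The chaperones that fell were Fkbp10 (−0.56, 0.0130), which can share reads with Nt5c3b, the collagen chaperone gene Serpinh1 (−0.35, 0.0455), the glucosidase gene Ganab (−0.33, 0.0456) and the prolyl isomerase gene Fkbp9 (−0.34, 0.0478), the last named after its value was seen. In the translocon group the signal peptidase gene Sec11c rose (0.50, 0.0151) and the oligosaccharyltransferase gene Stt3b fell (−0.36, 0.0433).

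The PERK branch held calls in both directions. Eif2ak3, which encodes PERK, measured 14.8, 14.3 and 13.2 CPM in caMNK and 17.8 and 17.5 CPM in pBABE, lower in every caMNK library but not past the threshold (log2 fold change −0.32, SE 0.104, adjusted p = 0.0897). Atf4 measured 161.5, 189 and 173 CPM in caMNK and 221 and 207 CPM in pBABE, also lower in every caMNK library (−0.29, SE 0.0945, adjusted p = 0.0926). Ddit3, which encodes CHOP, was on the other side, at 36.8, 32.1 and 47.4 CPM in caMNK and 30.4 and 29.7 CPM in pBABE (0.37, SE 0.155, adjusted p = 0.179). Of the genes downstream, Trib3, a pseudokinase gene induced by ATF4 and CHOP, measured 9.80, 11.7 and 15.7 CPM in caMNK and 26.0 and 26.7 CPM in pBABE. It fell 2.12-fold with no overlap of the groups (−1.09, SE 0.173, adjusted p = 0.0113). Atf5, a transcription factor gene that can share reads with Il4i1, fell (−0.59, adjusted p = 0.0279), and the stress-induced gene Nupr1 rose, at 33.4, 31.4 and 32.1 CPM in caMNK and 20.2 and 21.5 CPM in pBABE (0.63, SE 0.0937, adjusted p = 0.00900).

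In the remaining groups the genes with the lowest p did not pass. Among the sensors these were Mbtps1, the gene of a protease that cuts ATF6 (−0.23, adjusted p = 0.133), and Creb3, which can share reads with Tln1 and Gba2 (0.27, 0.156). Among degradation genes they were Man1a2 (−0.37, 0.0833), Svip (−0.58, 0.0859) and March6 (−0.31, 0.103). Sec62 of the translocon (0.25, 0.111) did not pass in its group either. In the UFM1 pathway Ufsp1 (−0.19, 0.510) and Ufsp2 (−0.17, 0.279), both protease genes, did not pass, and Ufsp2 can share reads with Ankrd37. In ER export the lowest were the cargo receptor gene Lman1 (−0.26, 0.140), the coat scaffold gene Sec16a (−0.19, 0.239) and Arfgap3 (−0.17, 0.321).

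**Figure D5:**
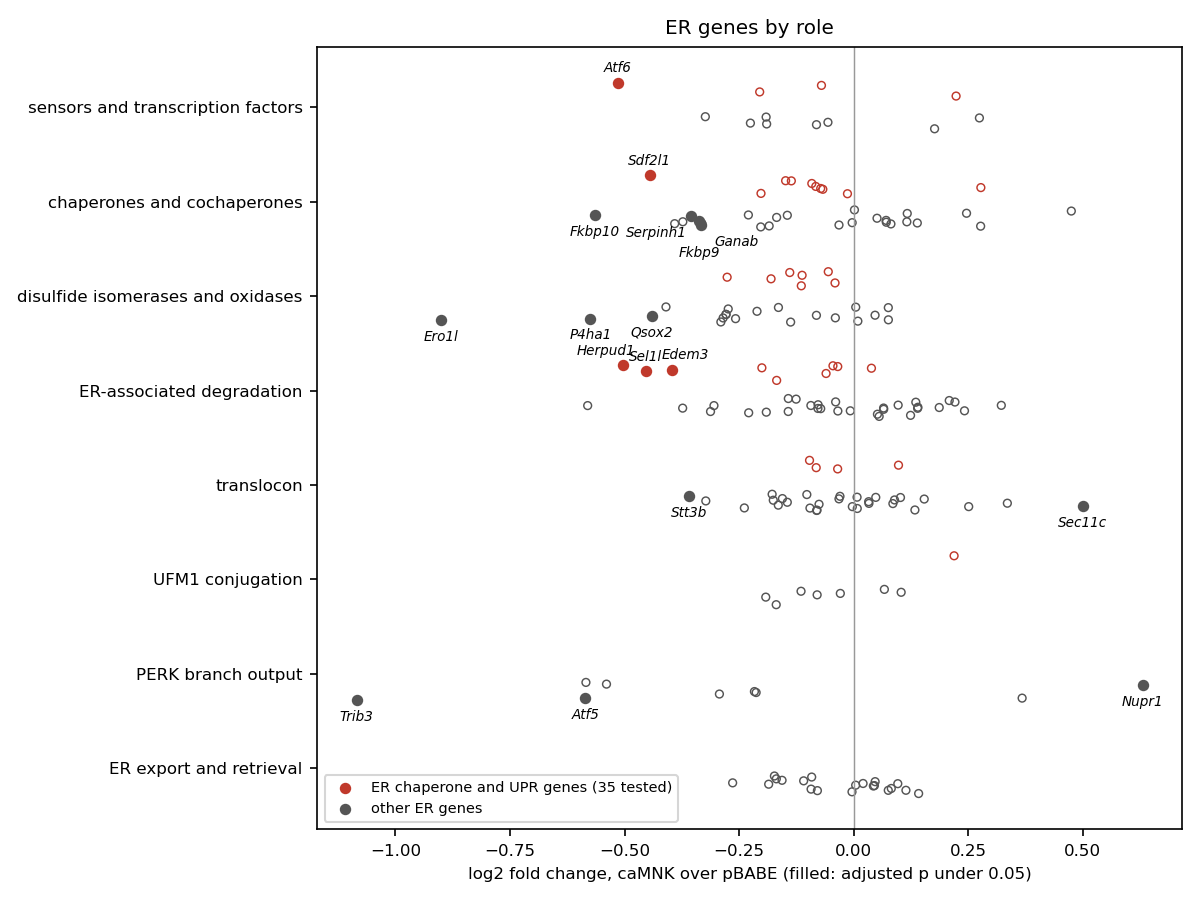
Each point is a gene, placed by its log2 fold change (caMNK over pBABE) on the horizontal axis and by role on the vertical axis, with the 35 tested genes in red and the 148 tested other ER genes in grey; filled and named points have an adjusted p under 0.05. Named points lie to the left of 0 apart from Sec11c (0.50) and Nupr1 (0.63), and Trib3 (−1.09) and Ero1l (−0.90) are the furthest left.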

How the data were processed

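Per the labels' protocols, total RNA (RNeasy Plus Mini Kit) was sequenced as TruSeq Stranded Total RNA libraries. The authors deposited 1 table of raw read counts per library, which also gives gene lengths. The submitters' processing notes name mm10, STAR 2.5.3 and featureCounts 1.5.3, with Trimmomatic 0.32, FastQC 0.11.2, SAMtools 0.1.19 and DESeq2; no source used here gives the annotation or the counting options. Of 44118 symbols matched to GENCODE M21 (same build), 37335 deposited lengths equalled the genomic span, and 0 of 27786 multi-exon genes had the length of their summed exons. Counts therefore take in introns. The lengths do not show how strand or overlap was handled. That reads where genes overlap can be in the counts of both, whatever their strand, was inferred from the counts of overlapping genes. Genes whose overlapping gene has at least 10% of their counts are named with it.

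Groups came from the sample titles. The counts were fitted with edgeR 4.0.16 in R 4.3.3 (filterByExpr, TMM, robust quasi-likelihood F test, group as sole covariate), with Benjamini-Hochberg adjustment over 17026 genes and a threshold of 0.05; the fit was tested on simulated data. SE is the absolute log2 fold change over the square root of F, and CPM uses TMM-scaled totals. Each gene's interval uses the fit's moderated degrees of freedom, and the 5 libraries limit the precision. Alternatives used limma 3.58.1 (voom), DESeq2 1.42.0, other scalings and filters, each library left out, a replicate block, and a GC content and gene length correction (a smooth of each removed from every library) that was chosen after seeing the data. The members and lists were chosen with earlier results of these data known, so no set test was run. Values in every library were to be given for each called member and for Atf6, Atf6b, Ern1, Xbp1 and Hspa5, and other members were added. Of the other ER genes, Eif2ak3, Atf4, Ddit3 and the 3 with the lowest p in each role were to be named; 1 of these is not reported here. Promoter windows are RefSeq's.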

Additional observations from a re-analysis of the deposited data

How the results depend on the processing

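The counts of calls moved most with which libraries were used. With no filter on low counts 1591 genes rose and 1330 fell, and 20 other ER genes fell. Total-count scaling shifted the median of all genes by 0.054, moved the median of the 35 genes to −0.040 and left 6 other ER genes that fell, as did the stricter filter (6). Without genes that share reads, 415 rose and 310 fell, and 5 other ER genes fell. After the GC and gene length correction 1266 rose and 1224 fell, 1 of the 35 rose, and 24 other ER genes fell. With 1 library left out at a time, between 11 and 2325 genes rose and between 12 and 2617 fell, of the 35 between 0 and 1 rose and between 0 and 12 fell, and of the other ER genes between 0 and 10 rose and between 0 and 40 fell; the median of the 35 lay between −0.13 and −0.07. Where only pBABE replicate 1 or 2 remains, that lone library is assumed to vary like the caMNK libraries. The same-numbered libraries had correlations of −0.127 and −0.0217 between their deviations from the group means. With 2 pBABE libraries the pBABE deviations are mirror images, so these correlations cannot tell whether the numbers pair the libraries. In a fit with the replicate block caMNK replicate 3 has no pBABE partner, so the group difference rests on replicates 1 and 2. This fit gave 1477 rises and 1231 falls over all genes, 0 and 6 among the 35 and 3 and 15 among other ER genes. All 5 called genes kept their call in it, beside Pdia6 (log2 fold change −0.33, adjusted p = 0.0354).

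Of 919 pairs of a named gene and an alternative, 20 changed sign, none of them past the threshold in either fit, and all in genes with a log2 fold change near 0. Total-count scaling gave 0.040 for Manf, 0.015 for Creld2, 0.0090 for Syvn1, 0.021 for Edem2 and 0.020 for Ssr2. The stricter filter gave 0.0060 for Manf, and the fit with the block gave −0.0038 for Derl2. The GC and gene length correction gave 0.080 for Manf, −0.063 for Derl2 and 0.0069 for Edem2. With 1 library left out at a time the sign changed without caMNK replicate 2 for Atf6b (−0.20 to 0.019), Dnajb11 (−0.15 to 0.011), Creld2 (−0.13 to 0.049), Edem2 (−0.13 to 0.055) and Os9 (−0.15 to 0.048), without pBABE replicate 1 for Ero1lb (−0.25 to 0.029), Ssr2 (−0.10 to 0.017) and Manf, without caMNK replicate 1 for Manf (−0.062 to 0.044), and without caMNK replicate 3 for Derl2 (−0.00034 to 0.10). The cause was not tested.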

Other observations

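Of the chaperones outside the ER, the heat shock proteins of the cytosol and mitochondria, Hspa8 fell in caMNK. Of 12 tested, 1 fell and 0 rose by edgeR, DESeq2 and limma-voom (all genes 3.52% fell and 4.42% rose by edgeR). At an unadjusted p under 0.05 the counts were also 1 and 0 (all genes 12.1% and 13.8%). In the fit without caMNK replicate 2, 15.7% of all genes fell and 13.9% rose. Hspa8, the constitutive HSP70 gene, measured 2031, 2104 and 2037 CPM in caMNK and 2549 and 2530 CPM in pBABE, with no overlap (log2 fold change −0.30, SE 0.0779, adjusted p = 0.0498). Of the 12, 0 fell without caMNK replicate 1 (all genes 0.474%) and 0 without caMNK replicate 3 (all genes 4.6%), whereas 4 fell without caMNK replicate 2. With either pBABE library left out, nearly all calls over the whole set of tested genes were lost, that of Hspa8 among them. Hsp90ab1 was lower in every caMNK library, at 3896, 4396 and 4096 CPM against 4753 and 4651 CPM in pBABE, and did not pass the threshold (−0.19, adjusted p = 0.211). Hsp90aa1 overlapped between the groups (−0.11, adjusted p = 0.545), with replicate 2 the highest caMNK library as it was for Hspa5 and Hsp90b1. The 13 listed genes summed to between 9185 and 10296 CPM in caMNK and between 10849 and 10874 CPM in pBABE.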
